A study of Homo sapiens with 4 samples.

Results

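The genes described here are 38 genes of the endoplasmic reticulum (ER) that encode chaperones, folding enzymes, degradation factors, translocon subunits and sensors of the unfolded protein response. They were taken by symbol from a fixed list, with no filter on their values, out of 23228 gene symbols counted in each sample. The list was chosen with earlier results of these data known. All 38 symbols were found, and all 38 were among the 14473 genes with enough reads to be tested. RNA-sequencing was performed on cells labelled SKOV3, an established human ovarian cancer line, sorted by FACS with the ALDEFLUOR kit for high aldehyde dehydrogenase activity (ALDH+) and grown as serum-free spheroids, which the study calls ovarian cancer stem cells (OCSCs). The study compared 2 groups of 2 samples: Vehicle, and LY500307, an agonist of estrogen receptor β (ERβ) given at 5 µM. Both groups were treated for 24 h, and all 4 samples are labelled as the same cell line, so the results describe 1 line at 1 dose and 1 time. The labels number the samples 1 and 2 in each group without saying whether they were separate cultures, so p-values measure the spread between these samples, which may be technical.

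The ER folds and modifies proteins that are bound for the cell surface, the secretory route or secretion. When unfolded proteins build up in it, the sensors IRE1 (gene ERN1), ATF6 and PERK (gene EIF2AK3) start the unfolded protein response. IRE1 splices the mRNA of XBP1 and ATF6 is cut to release a transcription factor, and both products raise transcription of chaperone and degradation genes through short promoter elements, while PERK slows translation and favours ATF4 and DDIT3 (CHOP). In tumour cells these genes are widely used as a readout of ER stress and of secretory load.

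Gene totals were 28841701 to 34943882 counts per sample, and the members took 0.933 to 1.01% of them. The LY500307 samples differed from each other more than the Vehicle samples did, with a chi-square per degree of freedom over genes of 42.5 and 5.16. The summed level of 5 fibroblast and muscle markers was 470 to 479 CPM (counts per gene scaled to the gene total, for markers without TMM) in Vehicle and 565 to 693 CPM in LY500307, mostly from COL1A1 and COL1A2, with DES at 0 to 7 reads. Among 8 epithelial and SKOV3 markers, EPCAM stood at 200 to 238 CPM and ERBB2 at 48.1 to 58.9 CPM. KRT18 stood at 23.2 to 32.9 CPM and MUC1 at 5.08 to 8.63 CPM. In contrast, CDH1 had 0 to 4 reads, KRT19 0 to 2 reads, KRT8 9 to 33 reads and CLDN4 5 to 41 reads. The 7 ALDH and stem cell markers summed to 10.8 to 12.3 CPM. ALDH1A1 stood at 4.65 to 5.60 CPM, SOX2 at 3.52 to 4.95 CPM, and CD44 had 3 to 16 reads. The name SKOV3 is thus taken from the labels. The paper states that the identity of its cell lines was checked by short tandem repeat DNA profiling. From these RNA markers alone, low or absent KRT8, KRT19, CDH1 and CD44, beside EPCAM, ERBB2 and KRT18, leave the identity of the line uncertain. ESR2, which encodes ERβ, had 7 to 12 reads per sample and ESR1 had 0. The leukocyte markers CD3E, MS4A1 and PTPRC had 0 to 4 reads and CD14 6 to 22 reads, while CD68 stood at 11.9 to 17.7 CPM. The endothelial markers PECAM1 and CDH5 had 0 to 4 reads and VWF 0 to 11 reads, while KDR stood at 131 to 150 CPM. Their part in the results below was not tested.

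The short promoter elements through which ATF6 and XBP1 are known to act are shown first, so that the expression values can be read beside them. RefSeq promoters on GRCh38.p14, each 250 bases before to 50 bases after a transcription start, were present for 35 of the 38 members. PDIA3, DERL1 and DERL3 had no entry. Both strands were searched for the ER stress element ERSE (CCAAT, 9 bases, CCACG), for ERSE-II (ATTGG, 1 base, CCACG), for the unfolded protein response element UPRE (TGACGTGG) and for the CCAAT box alone (CCAAT), which lies within every ERSE and, read on the opposite strand, within every ERSE-II. ERSE was found in 6 members, 17.1% of those with a promoter, against 0.0916% of all 27305 genes with one and 0.153% of the tested genes. The sites are given here on the strand where they match, with the motif letters in capitals and the spacer in lower case, and with positions counted from the transcription start.
HSPA5, bases -66 to -48: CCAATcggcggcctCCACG
HSP90B1, bases -194 to -176: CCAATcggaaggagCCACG
HSP90B1, bases -89 to -71, opposite strand: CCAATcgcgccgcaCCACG
CALR, bases -225 to -207, opposite strand: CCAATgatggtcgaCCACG
CANX, bases -151 to -133: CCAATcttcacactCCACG
PDIA6, second start, bases -86 to -68: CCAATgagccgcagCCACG
CRELD2, bases -80 to -62, opposite strand: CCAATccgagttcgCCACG

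ERSE-II was found in 3 members, 8.57%, against 0.0696% of all genes with a promoter. UPRE was found in HYOU1, DNAJC10, SSR3 and SSR4, 11.4% of members against 0.927% of all genes, and a CCAAT box in 29 members, 82.9% against 39.7%. The palindromic estrogen response element (GGTCA, 3 bases, TGACC) was found in 0 of the 35 members and in 0.0732% of all genes, which says only that these letters were not in this window. HYOU1 held 2 ERSE-II sites, the first of them overlapped by a UPRE, and SDF2L1 and HERPUD1 held 1 each.
HYOU1, bases -185 to -175, opposite strand: ATTGGaCCACG
HYOU1, bases -79 to -69, opposite strand: ATTGGaCCACG
SDF2L1, bases -188 to -178, opposite strand: ATTGGtCCACG
HERPUD1, bases -117 to -107: ATTGGgCCACG
SSR4, UPRE at bases -129 to -122 of its second start, opposite strand: TGACGTGG

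For 3 of these genes the 250 bases before the start are printed whole, in lower case with the matched letters in capitals, because their expression values, given further on, were unlike: HSPA5 had near-equal levels in all samples, HSP90B1 has 2 elements and had lower values in LY500307, and SDF2L1 had the highest fold change among members. A match on the opposite strand reads there as its reverse complement. The first lies at chr9:125241344-125241593 on the minus strand, the second at chr12:103930160-103930409 on the plus strand and the third at chr22:21642052-21642301 on the plus strand (all GRCh38.p14, 5′ to 3′ towards the gene).
HSPA5: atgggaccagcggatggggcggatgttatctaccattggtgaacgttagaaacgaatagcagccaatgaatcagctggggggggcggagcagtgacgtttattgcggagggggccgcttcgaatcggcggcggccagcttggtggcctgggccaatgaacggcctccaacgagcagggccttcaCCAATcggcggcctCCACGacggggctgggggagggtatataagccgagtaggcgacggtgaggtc
HSP90B1: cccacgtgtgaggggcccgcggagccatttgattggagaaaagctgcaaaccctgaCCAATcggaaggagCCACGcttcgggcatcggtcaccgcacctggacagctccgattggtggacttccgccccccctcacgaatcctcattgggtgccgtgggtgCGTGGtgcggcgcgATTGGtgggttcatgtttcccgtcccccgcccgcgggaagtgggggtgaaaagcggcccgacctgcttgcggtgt
SDF2L1: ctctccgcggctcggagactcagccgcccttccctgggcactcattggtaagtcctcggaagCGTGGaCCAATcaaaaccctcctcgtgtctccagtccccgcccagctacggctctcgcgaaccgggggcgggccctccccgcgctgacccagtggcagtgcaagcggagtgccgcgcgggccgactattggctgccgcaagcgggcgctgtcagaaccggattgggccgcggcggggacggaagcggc

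**Figure D1:**
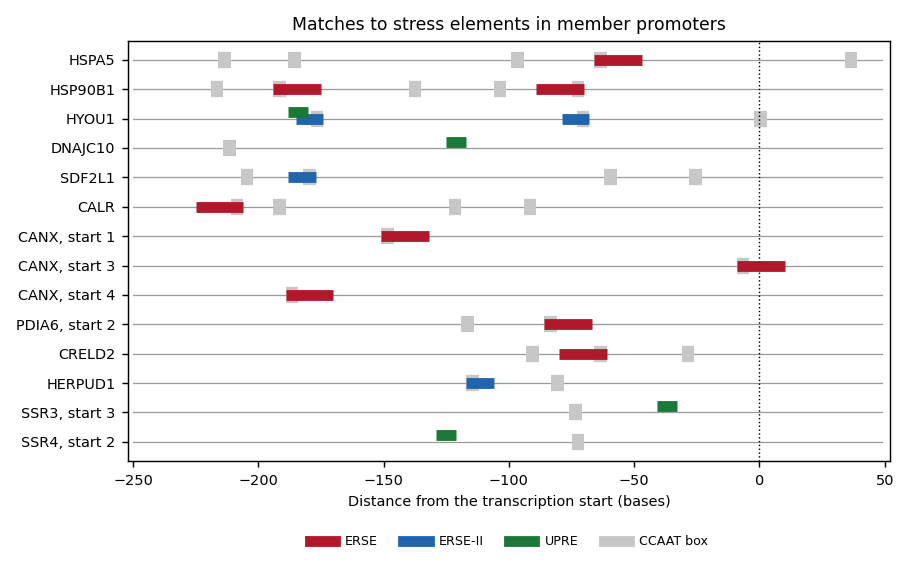
Matches to ERSE, ERSE-II, UPRE and the CCAAT box in the promoters of the 12 members that hold an ERSE, ERSE-II or UPRE. The x axis is the distance from the transcription start in bases, each row is one annotated start, and the dotted line marks that start. The ERSE of HSPA5 lies at bases -66 to -48 and HSP90B1 holds 2 ERSEs.

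Levels were compared between members per kilobase of the canonical transcript, as CPM per kb (mean ± SD, n = 2 per group). CALR, which encodes the calcium-binding lectin chaperone calreticulin, was highest at 861 ± 77.6 CPM per kb in Vehicle and 722 ± 175 in LY500307. HSP90B1 (GRP94, the HSP90 of the ER) followed at 483 ± 11.9 and 395 ± 40.3 CPM per kb, and PDIA6, a protein disulfide isomerase, at 362 ± 0.104 and 329 ± 18.5. PDIA4 (207 ± 2.77 CPM per kb in Vehicle), SSR2 (200 ± 8.26), P4HB (199 ± 6.46) and HSPA5 (185 ± 7.27) came next. Their ranges of mean ± SD overlapped, except between PDIA4 and HSPA5. The lowest levels were those of DERL3 at 2.70 ± 0.462 CPM per kb and of the sensor ERN1 at 0.953 ± 0.0562. Folding and translocon genes held the top of the order, and no sensor or degradation gene stood above SYVN1 at 26.0 CPM per kb.

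**Figure D2:**
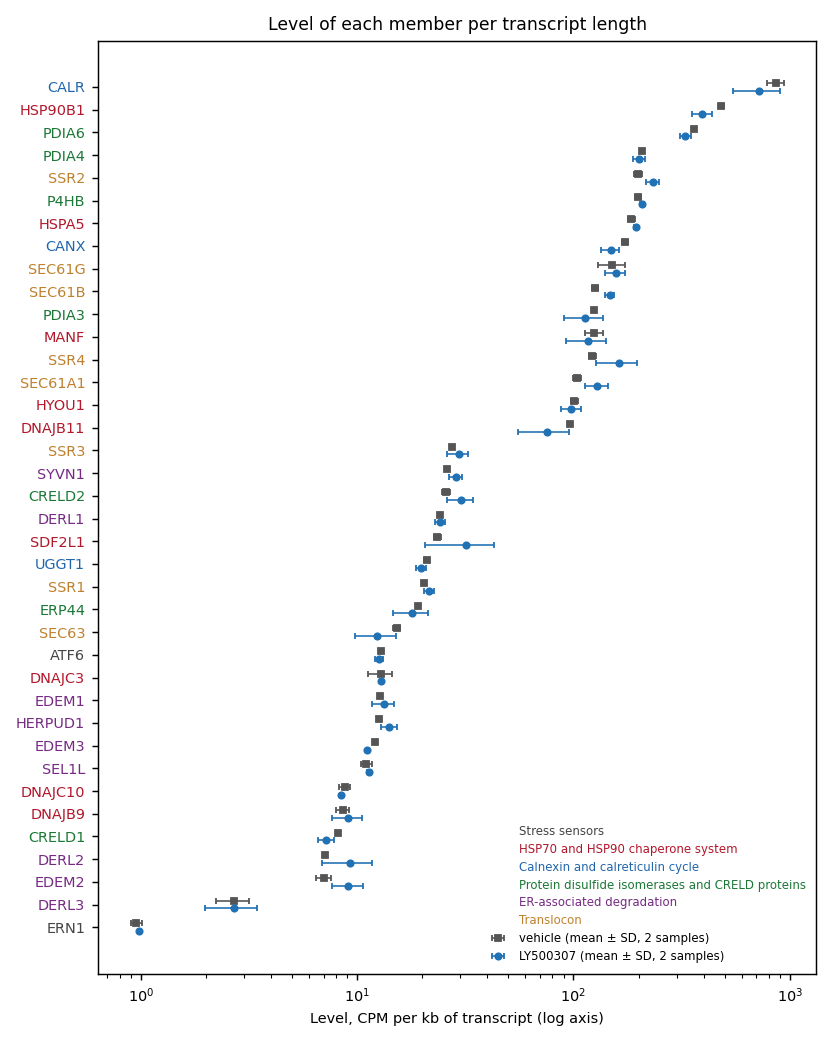
Level of each of the 38 members in CPM per kb of canonical transcript on a log axis, with grey squares for Vehicle and blue circles for LY500307 (mean ± SD, n = 2 each) and gene names coloured by role. CALR stands at 861 CPM per kb and ERN1 at 0.953 in Vehicle, and the 2 groups lie close together for most members.

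The comparison of LY500307 with Vehicle asked whether the ERβ agonist changed expression in OCSCs. None of the 38 members met the study's criteria for a differentially expressed gene, an unadjusted p below 0.05 with an absolute log2 fold change above 0.5, in edgeR's quasi-likelihood test on the counts, while 4.62% of all tested genes did. No member passed the fold limit alone, which 11.2% of all genes did. At an unadjusted p below 0.05, SEC61A1 and SSR4 were higher in LY500307, against 6.09% of all genes, and HSP90B1 was lower, against 5.5%. The study itself used DESeq2, which here also called none of the members, where 4.01% of all tested genes met the criteria. DESeq2 gave 5 members at an unadjusted p below 0.05, with DERL2 and DNAJB11 added, where 9.88% of all tested genes passed that level. HSP90B1 lost that level with the replicate block or the GC correction, SEC61A1 with the replicate block and SSR4 with the length correction. Leaving out either Vehicle sample left 0 members below it. After Benjamini-Hochberg adjustment over all tested genes the members' edgeR values ran from 0.422 to 0.998, and the lowest DESeq2 value was 0.337. By edgeR no gene of the 14473 had an adjusted p below 0.05, with 1678 below 0.05 unadjusted, and DESeq2 gave 22. In these bulk samples a change in the mix of cells and a change of RNA per cell cannot be told apart.

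Log2 fold changes of the members ran from -0.35 (DNAJB11) to 0.44 (SDF2L1), with 22 positive and 16 negative and a median of 0.02, against a median of all tested genes of -5.6e-05. The 95% interval of the fold change lay within 0.5 of 0 for 26 members and reached past it for the other 12, for which these samples leave a change of that size within the interval. In 12 members (31.6%) both LY500307 samples lay above both Vehicle samples, against 24.2% of all tested genes, and in 8 (21.1%) both lay below, against 24.4%. For a single gene, an exact permutation test of 2 against 2 samples cannot give a two-sided p below 0.333.

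**Figure D3:**
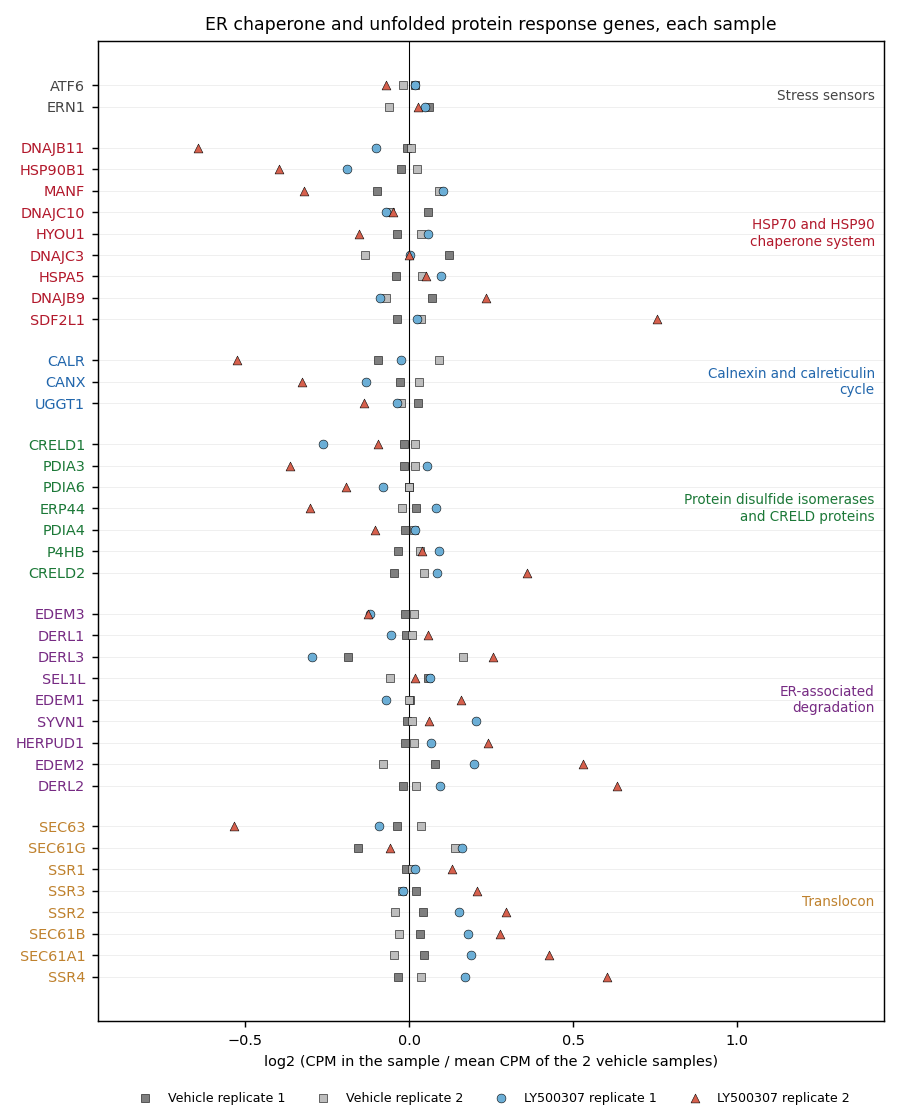
Value of each member in each of the 4 samples as log2 of its CPM over the mean CPM of the 2 Vehicle samples, ordered by role and fold change. Squares are Vehicle replicates 1 and 2, circles LY500307 replicate 1 and triangles LY500307 replicate 2, and the triangles are the lowest point in 14 members and the highest in 15.

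The 2 LY500307 samples contributed unequally. LY500307 replicate 2 lay farther from the Vehicle mean than replicate 1 in 28 of 38 members (73.7%), as it did in 69.7% of all tested genes. The median absolute log2 difference of the members between the 2 Vehicle samples was 0.0652, and between the 2 LY500307 samples 0.202. Over all tested genes the values were 0.106 and 0.219. Without LY500307 replicate 1, 7 members met the criteria (CALR, DERL2, DNAJB11, EDEM2, SDF2L1, SEC63 and SSR4), where 13.3% of all tested genes did and the spread came from the Vehicle samples alone. Log2 ratios of the members to the Vehicle mean ran from -0.30 (DERL3) to 0.20 (SYVN1) in LY500307 replicate 1. In replicate 2 they ran from -0.65 (DNAJB11) to 0.76 (SDF2L1). Values of each replicate are therefore given side by side below, and both are set against the same Vehicle samples.

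The stress sensors had near-equal levels in both groups. ERN1, the IRE1 kinase and nuclease, had 7.84 and 7.21 CPM in Vehicle and 7.78 and 7.67 CPM in LY500307. Both LY500307 samples lay between the Vehicle samples, and the log2 fold change was 0.04 (SE 0.18, 95% interval -0.37 to 0.45). ATF6, the sensor that is cleaved into a transcription factor, had 97.5 and 94.9 CPM in Vehicle and 97.4 and 91.5 CPM in LY500307. The groups overlapped, and its log2 fold change of -0.03 turned positive (0.05 to 0.06) with a correction for transcript length or GC content. Read counts do not show XBP1 splicing or ATF6 cleavage, which are the activating steps.

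Among the 9 genes of the HSP70 and HSP90 chaperone system, HSPA5 (BiP, the ER HSP70 and the most used marker of the response) had 706 and 747 CPM in Vehicle and 776 and 752 CPM in LY500307. Both LY500307 samples were above both Vehicle samples by a small margin, the log2 fold change was 0.07 (SE 0.10), and its interval of -0.17 to 0.32 stayed inside the fold limit. HSP90B1, at chr12:104323885-104347709 on hg19, had 1319.5 and 1366 CPM in Vehicle and 1177 and 1019 CPM in LY500307. The groups did not overlap. The log2 fold change was -0.29 (SE 0.12, 95% interval -0.56 to -0.02, edgeR adjusted p = 0.428), with replicate ratios to the Vehicle mean of -0.19 and -0.40 on the log2 scale and a value of -0.19 without replicate 2. These 2 genes, both with an ERSE in the promoter printed above, thus had fold changes of opposite sign.

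DNAJB11, a BiP co-chaperone, had the most negative fold change among members. Its values were 157 and 158 CPM in Vehicle and 147 and 101 CPM in LY500307. The LY500307 samples were both lower, replicate 2 by far the more so, and the log2 fold change was -0.35 (SE 0.17, edgeR adjusted p = 0.437), or -0.10 without replicate 2. SDF2L1, which works with DNAJB11 as a BiP partner, had the most positive one, with 18.9 and 19.9 CPM in Vehicle and 19.7 and 32.8 CPM in LY500307. Replicate 1 lay between the Vehicle samples and replicate 2 well above them, so the log2 fold change of 0.44 (SE 0.23, edgeR adjusted p = 0.45) was 0.03 without replicate 2. The 5 remaining members of this system, HYOU1 (a large HSP70 that releases nucleotide from BiP), DNAJB9, DNAJC3 and DNAJC10 (BiP co-chaperones, the last also a disulfide reductase) and MANF (a secreted stress-response protein), had overlapping groups and log2 fold changes from -0.09 to 0.08. Of the 9 genes, 4 had positive and 5 negative fold changes with a median of -0.05, which became 0.04 with the length correction and 0.08 with the GC correction.

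The 3 genes of the calnexin and calreticulin cycle, in which lectins hold glycoproteins while they fold, all had negative fold changes with a median of -0.23. The median was -0.12 with the GC correction and -0.035 without LY500307 replicate 2, and 1 of the 3 turned positive with the length correction. CALR had 1532 and 1740 CPM in Vehicle and 1608 and 1137 CPM in LY500307. Only replicate 2 lay below the Vehicle samples, and the log2 fold change was -0.25 (SE 0.17, edgeR adjusted p = 0.535), or -0.02 without that sample. CANX (calnexin) had 836 and 870 CPM in Vehicle and 779 and 680 CPM in LY500307, with both LY500307 samples lower and a log2 fold change of -0.23 (SE 0.11, edgeR adjusted p = 0.448), or -0.13 without LY500307 replicate 2. UGGT1, which tags unfolded glycoproteins for another round, had 230 and 222 CPM in Vehicle and 220 and 205 CPM in LY500307. The groups did not overlap, but its log2 fold change of -0.09 became 0.0084 with the length correction.

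The 5 protein disulfide isomerases and relatives (PDIA3, PDIA4, PDIA6, P4HB and ERP44), which form and shuffle disulfide bonds or retain unfinished proteins, had log2 fold changes from -0.14 to 0.07. PDIA6 was the most even within Vehicle, with 824 and 825 CPM, and both LY500307 samples were lower at 781 and 721 CPM (log2 fold change -0.13, 95% interval -0.38 to 0.11). P4HB had 473 and 495 CPM in Vehicle and 515 and 497 CPM in LY500307, a narrow separation upwards whose log2 fold change of 0.07 became -0.01 with the GC correction. In PDIA3, PDIA4 and ERP44 replicate 1 lay above both Vehicle samples and replicate 2 below them. CRELD1 and CRELD2, proteins of the ER that are linked to disulfide chemistry, had fold changes of opposite sign. CRELD1 had 17.7 and 18.1 CPM in Vehicle and 14.9 and 16.8 CPM in LY500307 (log2 fold change -0.18). CRELD2, a stress-inducible gene with an ERSE, had 35.6 and 37.9 CPM in Vehicle and 39.0 and 47.1 CPM in LY500307 (0.23, 95% interval -0.08 to 0.53), and its log2 fold change was 0.087 without replicate 2.

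Across the 19 folding genes (chaperone system, lectin cycle, disulfide isomerases and CRELD genes), 6 fold changes were positive and 13 negative with a median of -0.09. Without LY500307 replicate 2 the split was 10 and 9 with a median of 0.0049, so the lean to lower values in this class rested on 1 sample. The members' summed share of gene counts was 0.980 and 1.01% in Vehicle, 0.994% in LY500307 replicate 1 and 0.933% in replicate 2.

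Of the 9 genes of ER-associated degradation, which extract misfolded proteins for the proteasome, 8 had positive fold changes, with a median of 0.05 and a range of -0.12 to 0.39. Without LY500307 replicate 2 the split was 5 and 4 with a median of 0.07. HERPUD1, a membrane scaffold of the pathway and a strong stress target with an ERSE-II, had 35.7 and 36.3 CPM in Vehicle and 37.7 and 42.5 CPM in LY500307. Its groups were separate, with a log2 fold change of 0.16 (SE 0.12, 95% interval -0.12 to 0.43), or 0.069 without LY500307 replicate 2. SEL1L and SYVN1 form the central ubiquitin ligase. SEL1L had 90.9 and 83.8 CPM in Vehicle and 91.2 and 88.3 CPM in LY500307, overlapping groups with a log2 fold change of 0.04. SYVN1 had 78.7 and 79.4 CPM in Vehicle and 91.0 and 82.5 CPM in LY500307, with no overlap and a log2 fold change of 0.13 (SE 0.10).

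The derlins, membrane proteins of the export channel, had log2 fold changes of 0.00 to 0.39, and their 95% intervals overlapped. DERL2 had 29.2 and 30.0 CPM in Vehicle and 31.6 and 45.9 CPM in LY500307. Replicate 1 lay just above the Vehicle samples and replicate 2 well above, and the log2 fold change was 0.39 (SE 0.18, edgeR adjusted p = 0.432), or 0.095 without replicate 2. With the GC correction it was 0.51 and DERL2 alone met the criteria. DERL1 had a log2 fold change of 0.00 (95% interval -0.23 to 0.24). DERL3 had 220 and 266 reads in Vehicle and 236 and 322 in LY500307, or 7.34 and 9.36 against 6.80 and 9.96 CPM, with overlapping groups. Of the exons of DERL3 (chr22:24176690-24181315 on hg19), 2747 bases overlap exons of SMARCB1 on the opposite strand, and the strand setting of the counting was not stated, so its reads are uncertain.

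The EDEM genes encode lectin-like mannosidases that mark glycoproteins for degradation. EDEM2 had 14.0 and 12.5 CPM in Vehicle and 15.2 and 19.2 CPM in LY500307. Neither LY500307 sample reached down to the Vehicle samples, and the log2 fold change was 0.37 (SE 0.17, edgeR adjusted p = 0.431), or 0.20 without LY500307 replicate 2. EDEM3 was the only degradation member with a negative fold change, with 82.0 and 83.6 CPM in Vehicle and 76.2 and 75.9 CPM in LY500307. Its log2 fold change of -0.12 became 0.0032 with the GC correction. EDEM1 had overlapping groups and a log2 fold change of 0.05.

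The translocon members had the highest median of the 6 roles at 0.16, with 7 of 8 fold changes positive. With the length correction the median was 0.121, below the 0.125 of the degradation genes, so that rank was lost. It was 0.20 with the GC correction, and without LY500307 replicate 2 it was 0.16 with 6 positive. SEC61A1, the pore-forming subunit (chr3:127770484-127790548 on hg19), had 382 and 359 CPM in Vehicle and 421 and 497 CPM in LY500307. Both LY500307 samples were higher, and the log2 fold change was 0.31 (SE 0.12, 95% interval 0.04 to 0.59, edgeR adjusted p = 0.422), or 0.19 without LY500307 replicate 2. SSR4, the δ subunit of the translocon-associated protein complex that helps chains enter the channel, had 72.6 and 76.2 CPM in Vehicle and 83.7 and 113 CPM in LY500307. The LY500307 samples were again the higher pair, and the log2 fold change was 0.40 (SE 0.15, 95% interval 0.06 to 0.74, edgeR adjusted p = 0.422). It was 0.17 without replicate 2 and 0.22 with the length correction.

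SEC61B, a small subunit of the channel, had 72.2 and 69.1 CPM in Vehicle and 80.1 and 85.6 CPM in LY500307, and SSR2 had 228 and 215 CPM against 246 and 271 CPM. The groups did not overlap in either gene, and both log2 fold changes were 0.23 (edgeR adjusted p = 0.431 and 0.432). With the length correction they were 0.056 and 0.11. Among the 15 alternatives both genes passed an unadjusted p below 0.05 only with library totals in place of TMM scaling or without 1 of the LY500307 samples. SEC61G, SSR1 and SSR3 had log2 fold changes of 0.05, 0.08 and 0.10. SEC63, a J-domain protein that couples the channel to BiP, went the other way, with 95.5 and 100.5 CPM in Vehicle and 91.9 and 67.7 CPM in LY500307. The groups did not overlap, and its log2 fold change was -0.30 (SE 0.15, edgeR adjusted p = 0.445), or -0.090 without LY500307 replicate 2. COL1A1 and COL1A2, which were also higher in both LY500307 samples, encode secreted proteins that pass this channel, and their part in these values was not tested.

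**Figure D4:**
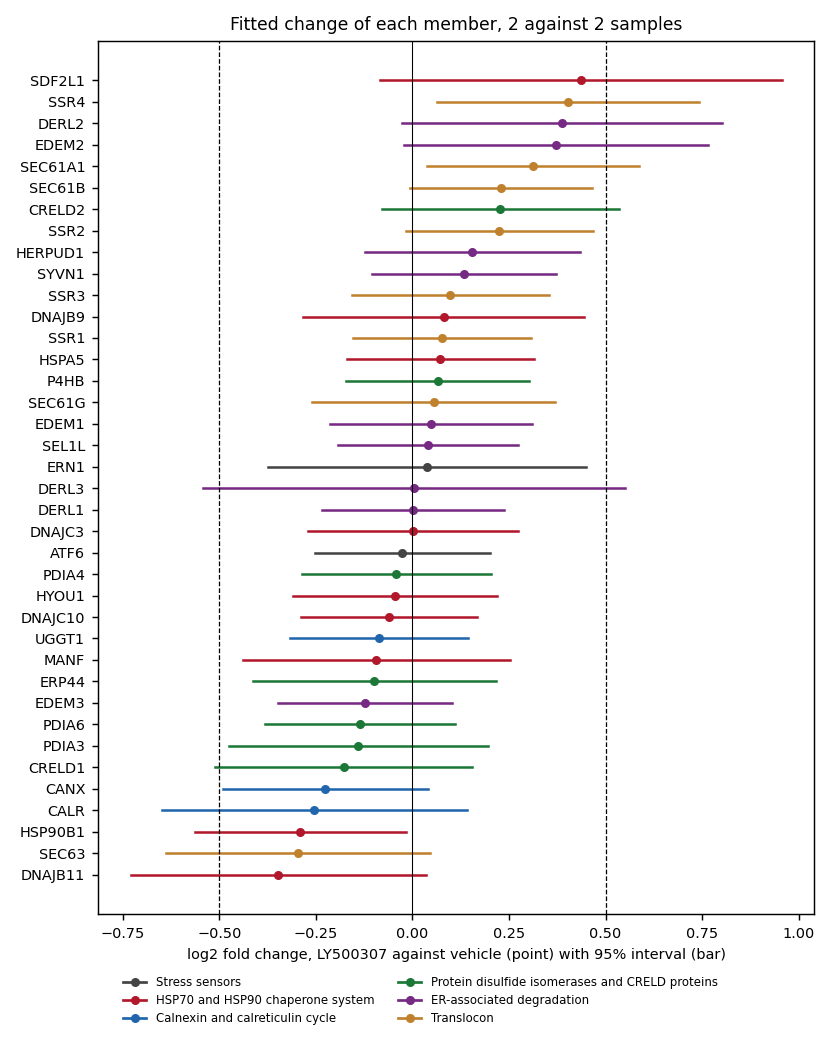
Fitted log2 fold change of each member, LY500307 against Vehicle (2 samples each), as points with 95% intervals as bars, coloured by role. Dashed lines mark the study's fold limit of 0.5, and every point lies inside them, from -0.35 for DNAJB11 to 0.44 for SDF2L1, while 12 of the 38 bars reach past.

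Across the members, the fold change had a Spearman correlation of -0.28 with transcript length and 0.30 with GC content (n = 38 genes, all from the same 4 libraries). Across 13782 tested genes with an annotation match the values were -0.22 and 0.33. Genes are not independent replicates, and the values are given as a description. Long transcripts of low GC content leaned to lower values and short transcripts of high GC content to higher ones, in the members as in all genes. SDF2L1 (825 bases, 65.1% GC), SSR4 (608 bases, 59.0% GC) and SEC63 (6430 bases, 39.5% GC) followed both orders. Other members did not. DERL2 (4167 bases, 39.1% GC) had a log2 fold change of 0.39 and CRELD1 (2196 bases, 56.8% GC) of -0.18. DNAJB11, with the most negative fold change, has 1640 bases.

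Members with and without the promoter elements had fold changes of both signs. The 9 members with an ERSE or ERSE-II had 4 positive fold changes, a median of -0.045 and a range of -0.29 to 0.44. In edgeR 1 of them (HSP90B1) had an unadjusted p below 0.05, as 1161 of all 9818 tested genes with a promoter did. The 26 members with a promoter but neither element had 16 positive fold changes and a median of 0.04, and 2 passed that p. The 19 other tested genes with either element had 11 positive fold changes and a median of 0.08, and 1 passed that p. In all 3 sets the medians lay within 0.1 of 0. Of the UPRE genes, HYOU1 and DNAJC10 had log2 fold changes of -0.05 and -0.06, and SSR3 and SSR4 of 0.10 and 0.40.

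Other genes of the pathway were taken from 8 lists written by function, which held 252 symbols with older and newer names included. Of these, 232 were in the data and 226 were tested. Under the study's criteria 3 genes were called higher and 1 lower, or 4 of 226 where 4.62% of all tested genes were called, with 136 positive fold changes and a median of 0.05. In the list of other sensors, transducers and transcription factors 0 of 16 genes were called. XBP1, the transcription factor made by IRE1 splicing, had 82.2 and 79.4 CPM in Vehicle and 79.9 and 94.9 CPM in LY500307 (log2 fold change 0.11, adjusted p = 0.677 by edgeR). ATF4 had 145 and 143 CPM against 143 and 160 CPM (0.07), and EIF2AK3 44.3 and 45.7 CPM against 45.8 and 37.2 CPM (-0.12). All these groups overlapped.

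The list of targets of the PERK, ATF4 and CHOP branch held 21 tested genes, of which 1 was called higher and 1 lower. DDIT3, which encodes CHOP, had 22.6 and 20.8 CPM in Vehicle and 24.4 and 22.2 CPM in LY500307, with overlapping groups and a log2 fold change of 0.10. SESN2, a sestrin that is induced by ATF4 and also by p53, rose from 70.5 and 70.1 CPM to 95.6 and 127 CPM (log2 fold change 0.66, SE 0.14, edgeR adjusted p = 0.422). Without LY500307 replicate 2 its log2 fold change was 0.45, below the limit. STC2, a secreted stanniocalcin that is also induced by hypoxia, fell from 50.8 and 56.6 CPM to 33.7 and 34.1 CPM (-0.66, SE 0.12, edgeR adjusted p = 0.422). DESeq2 gave adjusted p values of 0.04 for SESN2 and 0.023 for STC2. The 2 called genes of this branch thus moved in opposite directions, and the median of the list was 0.10.

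In the list of translocation, signal recognition and signal peptidase genes 1 of 31 was called. FAM158A (EMC9, a subunit of the ER membrane complex) rose from 11.4 and 11.2 CPM to 16.2 and 19.7 CPM (log2 fold change 0.67, SE 0.16, edgeR adjusted p = 0.422). Both LY500307 samples lay above both Vehicle samples in 16 of the 31 genes and below in 4, where all tested genes had 24.2% and 24.4%, and the median was 0.09. In the N-glycosylation and glucosidase list 0 of 38 genes were called, 30 fold changes were positive and the median was 0.13. There 19 genes lay above and 5 below without overlap (24.2% and 24.4% of all tested genes). The median log2 ratio of this list to the Vehicle mean was 0.074 in LY500307 replicate 1 and 0.189 in replicate 2. For the translocation list the values were 0.077 and 0.155. No length-corrected or GC-corrected median is given for either list. The COPII and KDEL retrieval list had 1 of 32 called. TMED9, a cargo receptor of early secretory vesicles, rose from 63.3 and 61.2 CPM to 71.4 and 105 CPM (0.50, SE 0.17, edgeR adjusted p = 0.422). That call was lost with the replicate block, the length correction or the GC correction, where the log2 fold change was 0.41 to 0.48, and it was 0.20 without LY500307 replicate 2. The lists of other oxidoreductases (20 genes), co-chaperones and prolyl isomerases (31) and other degradation genes (37) held 0 called genes, with medians of 0.00, 0.01 and 0.03.

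**Figure D5:**
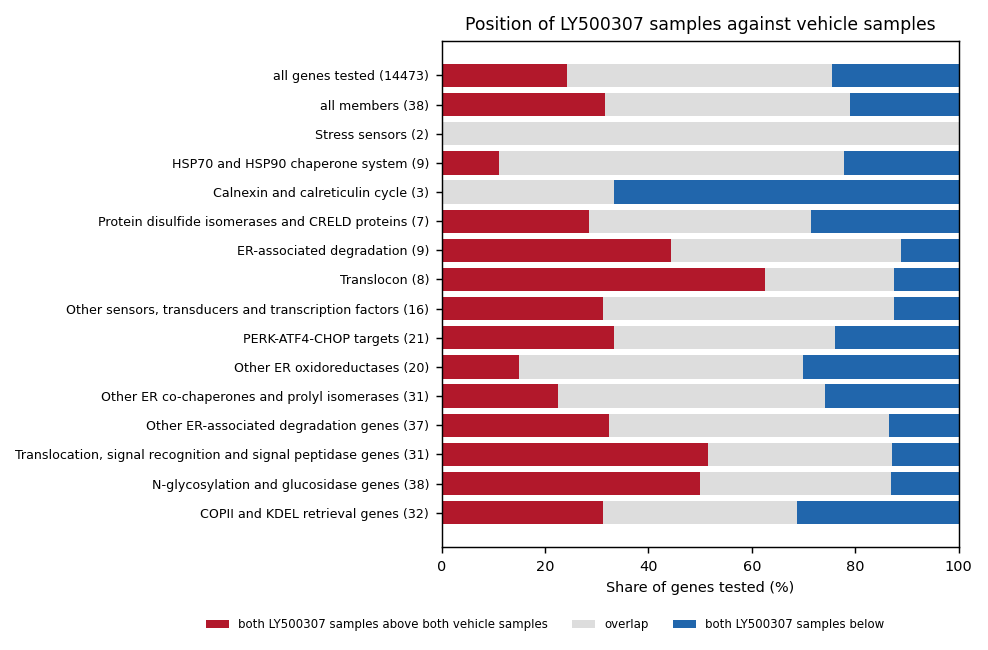
Share of tested genes in percent in which both LY500307 samples lay above both Vehicle samples (red), overlapped them (grey) or lay below both (blue), for all genes, the 38 members, their roles and the 8 pathway lists, with the number of genes in brackets. All tested genes stand at 24.2% above and 24.4% below, and the translocon members at 5 above and 1 below of 8.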

How the data were processed

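RNA-seq was available for 2 Vehicle and 2 LY500307 samples of SKOV3-ALDH+ OCSCs, grouped by their treatment labels. The authors deposited raw read counts per gene symbol. The submitters' processing notes name bcl2fastq, TopHat2 2.0.8b, HTSeq and hg19. The series text says that sequencing was run in duplicate and raw reads were combined. The labels describe a total RNA kit with single-end reads and the methods a stranded mRNA kit, and the strand setting of the counting is not given in the sources used here. Reads of near-identical copies or of exons shared with another gene are uncertain. Annotated pseudogenes named after the gene symbol exist for HSPA5, PDIA3, SEC61G, SEC63, SSR1 and SSR4. Copies under other names were not searched for, so the remaining members, HSP90B1 included, may have some. Exons of PDIA3, PDIA6, SYVN1 and DERL3 overlap a gene on the opposite strand, and an exon of HSP90B1 holds a microRNA gene.

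Tally lines for reads outside genes (17.3 to 20.5% of all tallied reads), ambiguous reads (0.44 to 0.481%) and multiply aligned reads (32.3 to 33.4%) were left out of library sizes and tests. Counts were fitted over all genes in R 4.3.3 with edgeR 4.0.16 (TMM scaling, the filterByExpr filter, quasi-likelihood test, Benjamini-Hochberg adjustment). The standard error is the absolute log2 fold change over the square root of F. CPM of members and pathway genes used TMM-scaled library sizes, with TMM factors of 0.986 to 1.03, and CPM of marker genes used the gene totals alone. DESeq2 1.42.0, other scalings and filters, length and GC corrections, a replicate block and leaving out each sample were alternatives. The scripts were tested on simulated counts. Gene coordinates and lengths came from GENCODE v44 lifted to hg19, Ensembl canonical transcript, which matched 21312 of 23228 symbols, 2175 of them by an older symbol, and all 38 members. Promoters came from RefSeq on GRCh38.p14, another build, and no coordinate was converted.

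The members and gene lists were chosen with earlier results of these data known. Per-sample values were given by rule for members with an unadjusted p below 0.05, for HSPA5, HSP90B1, ERN1, ATF6, HERPUD1, SEL1L, SYVN1, SEC61A1 and DERL3, for the 3 members with the most positive and the 3 with the most negative fold change, for list genes that met the criteria, and for XBP1, ATF4, DDIT3 and EIF2AK3. Other members were added after their values were seen.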

Additional observations from a re-analysis of the deposited data

How the results depend on the processing

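Over 15 alternative settings, 19 of the 38 members kept the sign of their fold change, and 0 members passed an adjusted p of 0.05 in any fit of all 4 samples. Of the 38 members 1 met the study's criteria with the GC correction, and leaving out each sample gave 0 to 7. Members at an unadjusted p below 0.05 numbered 5 with DESeq2, 5 with library totals, 7 with a filter of at least 1 count and 0 to 23 when each sample was left out (0 without either Vehicle sample, where 5.0% of all genes passed, 23 without LY500307 replicate 1, where 40.3% did, and 8 without replicate 2, where 15.3% did). Without LY500307 replicate 1, 19 members had an adjusted p below 0.05, as 5002 of all 14906 genes did, and without LY500307 replicate 2, HSP90B1 and SEC61A1 did, as 590 of 14878 genes did. An unadjusted p below 0.05 was found in 9.88% of all tested genes with DESeq2, 11.5% with library totals and 11.6% with the filter of at least 1 count. In the main fit 3 members and 11.6% of all tested genes passed that level. The differences between replicates 1 and 2 in Vehicle and in LY500307 had a correlation of -0.07 over genes and -0.23 over genes above the median level. With 4 samples this cannot show whether same-numbered samples were handled together. With the replicate block 5 members had an unadjusted p below 0.05 (DERL2, DNAJB11, SDF2L1, SEC63 and SSR4, but not HSP90B1 or SEC61A1) and 0 met the criteria. Of all tested genes 11.2% passed that p and 4.95% met the criteria. A crossed replicate block, chosen after seeing the data, gave 7 members at an unadjusted p below 0.05 and 0 called. There 16.5% of all tested genes passed that p and 5.40% were called. The pathway lists held 7 called genes with library totals and 7 when GC content was corrected, with or without the replicate block (7). Of all tested genes 4.80% were called with library totals, 3.97% with the GC correction and 4.15% with the block added. The lists held 4 to 37 when each sample was left out (8 without Vehicle replicate 1 and 37 without LY500307 replicate 1). Without LY500307 replicate 1, 13.3% of all tested genes were called too, so the 37 are not read as a pathway response. Members without overlap numbered 25 to 33 when each sample was left out, since 1 sample then stands for a group. No share of all genes without overlap is given for these fits, so the overlap counts are not read as a result. Some fold changes on the log2 scale changed sign. With the length correction they became -0.017 for ATF4, 0.054 for ATF6, -0.031 for DDIT3, 0.039 for DNAJC10, -0.10 for SEC61G and 0.0084 for UGGT1, and with the block added -0.018, 0.054, -0.034, 0.039, -0.11 and 0.0084. With the GC correction they became 0.059 for ATF6, -0.091 for DERL3, 0.079 for DNAJC10, 0.0032 for EDEM3, 0.018 for ERP44 and -0.011 for P4HB, and with the block added 0.059, -0.099, 0.079, 0.0028, 0.011 and -0.012. ATF6 was 0.012 with library totals, and DERL3 was -0.0084 with the block and -0.0082 with the crossed one. Leaving out each sample turned the sign in the ranges -0.0048 to 0.15 for ATF4, -0.069 to 0.020 for ATF6, -0.052 to 0.058 for DERL1, -0.29 to 0.26 for DERL3, -0.089 to 0.24 for DNAJB9, -0.12 to 0.13 for DNAJC3, -0.069 to 0.16 for EDEM1, -0.27 to 0.028 for EIF2AK3, -0.021 to 0.099 for ERN1, -0.30 to 0.083 for ERP44, -0.15 to 0.059 for HYOU1, -0.32 to 0.10 for MANF, -0.36 to 0.055 for PDIA3, -0.10 to 0.021 for PDIA4, -0.086 to 0.21 for SEC61G, -0.017 to 0.10 for SEL1L, -0.018 to 0.21 for SSR3 and -0.014 to 0.23 for XBP1. The cause was not tested.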
